A study of Homo sapiens with 20 samples.

Results

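The comparison concerns the addition of TM to cisplatin for 12 h in MDA-MB-231, an established human breast cancer cell line of the basal type. It sets 3 arrays of cells given 36 µM cisplatin together with 10 µM TM for 12 h (Cis/TM 12 h, replicates A to C) against 3 arrays of cells given 36 µM cisplatin for 12 h (Cis 12 h, replicates A to C), 6 of the 20 arrays of the series, chosen by their titles and not by any measured value. Both groups therefore carried cisplatin for the same time, and TM was what differed between them. For orientation, 2 arrays of cells given 10 µM TM for 12 h (TM 12 h) against 3 Control arrays (a vehicle control in the methods, with no time in the labels), and 3 arrays of cells given both drugs at the same doses for 24 h (Cis/TM 24 h) against 3 of cells given cisplatin for 24 h (Cis 24 h), are placed beside it, and neither of these comparisons uses any of the 6 arrays. The platform was the Affymetrix Human Gene 1.0 ST array, and every value below is a log2 value after RMA, so that a difference of 1 is a doubling. Each of 18417 genes was represented by 1 transcript cluster. The sources name triplicate wells of 1 cell line and do not state separate cultures, so a p-value here reflects the spread between these arrays, which may be technical. The number of arrays limits the precision, and the median standard error of a log2 difference was 0.135.

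Cisplatin binds to purine bases of DNA and crosslinks them, which blocks replication forks and transcribing polymerases. Cells answer with checkpoint signalling, excision repair of the adducts, and repair of interstrand crosslinks by the Fanconi anaemia and homologous recombination proteins. TM, ammonium tetrathiomolybdate, is a copper chelator. Copper enters cells through the transporter CTR1, which is encoded by SLC31A1. It is carried by chaperones to the ATPases ATP7A and ATP7B and to copper enzymes, and surplus metal is bound by metallothioneins. Metallothioneins and glutathione also bind platinum, so copper handling, thiol metabolism and the damage response are the gene groups that bear most directly on the pair of drugs.

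Markers of basal lines were high on the arrays. VIM and CD44, a mesenchymal filament protein and a surface receptor high in basal lines, lay at the 99.1 and 99.4 percentiles of all genes, and of 10 luminal or epithelial markers 7 also lay above the median gene. Of that list ESR1, the estrogen receptor, lay at percentile 17.6 and CDH1, E-cadherin, at percentile 11.3. Of 7 measured basal-line markers, 7 lay above the median gene. The leukocyte and endothelial markers, 3 measured of each, all lay below it, and so did 4 of 5 fibroblast markers. The luminal keratins KRT8 and KRT18 lay at percentiles 85.5 and 83.7. The summed level of the basal-line markers ran from 68.3 to 69.5 in Cis/TM 12 h and from 67.8 to 69.0 in Cis 12 h, and 0 of the 28 measured markers of any list had an unadjusted p under 0.05.

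One array stood apart. Cis 12 h A correlated with the other 5 arrays across genes by 0.984 to 0.989, whereas the other 5 correlated with each other by 0.995 to 0.997 (Pearson’s r across genes, which are no independent replicates). Its SD over genes was 2.03, against 2.12 to 2.17 on the others, and its median was 5.94, against 5.85 to 5.88. The first principal component of the 6 arrays held 58.9% of the variance and placed Cis 12 h A alone at −37.8, with the other arrays between 1.18 and 15.0. Counts and list medians are therefore given with and without that array, and so are the values of genes with no overlap between the groups where leaving it out moved them by more than 1.5 times. The part of this array in each result was not tested beyond leaving it out.

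No gene was called. A call needed a fold change above 1.5 with an adjusted p below 0.05, and limma made 0 calls (0% of 18417), and the smallest adjusted p was 0.234. Without a fold minimum the count was also 0. At an unadjusted p under 0.05, 1352 genes were higher in Cis/TM 12 h (7.34%) and 380 were lower (2.06%). Under quantile normalization these counts were 976 and 495. All 3 Cis/TM 12 h arrays lay above all 3 Cis 12 h arrays in 1737 genes (9.43%) and below them in 1056 genes (5.73%). Of the 1352 higher genes all 1352 kept their direction without Cis 12 h A, and 363 kept an unadjusted p under 0.05. Of the 380 lower genes all 380 kept their direction and 103 kept that p. Both sets were picked by p with that array included, so a change of direction was unlikely from the start. The kept directions therefore say little about the part of that array. Over all genes without that array, 394 were higher (2.14%) and 182 were lower (0.988%), and the smallest adjusted p was 0.9998. Limma with array weights, which gave Cis 12 h A a weight of 0.240 and Cis/TM 12 h C a weight of 4.29, called 27 genes higher and 14 lower, and with these weights 55 of the 142 named genes with an unadjusted p under 0.05 had an adjusted p under 0.05. The results below are therefore small shifts, counted at unadjusted p-values of limma over all 18417 genes. In the main fit, with equal weights and all 20 arrays, no single gene of this comparison passed the adjusted threshold (adjusted p of 0.234 or more). A few genes passed it with equal weights under quantile normalization or without Cis 12 h B, and these are named below.

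The differences were narrow. Over all genes the median log2 difference was −0.01, 47.0% of genes had a positive difference, and 95% of them lay between −0.30 and 0.39. A difference beyond 1.5-fold in either direction was seen in 56 genes, and 42 higher and 10 lower genes combined it with an unadjusted p under 0.05.

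Higher genes were more highly expressed and longer than the average gene. The 1352 higher genes had a median level of 8.06 and a median gene length of 82.0 kb, against 5.81 and 10.1 kb for the 380 lower genes and 5.88 and 24.5 kb for all genes. In the 4597 longest genes, of 65.8 kb and more, the median difference was 0.05 and 17.7% of genes were higher at an unadjusted p under 0.05, and in the 4597 shortest the median was −0.08 and 0.805% were higher. In the 4604 most highly expressed genes the median difference was 0.09, against −0.04 in the 4605 lowest. The medians did not rise evenly with level. From the lowest bin to the highest they were −0.04, −0.09, 0.02 and 0.09. Without Cis 12 h A these medians were 0.03 and −0.03 for the longest and the shortest genes, and 0.04 and −0.01 for the highest and the lowest. The order by length was thus the same with and without the array, at a smaller size.

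**Figure D1:**
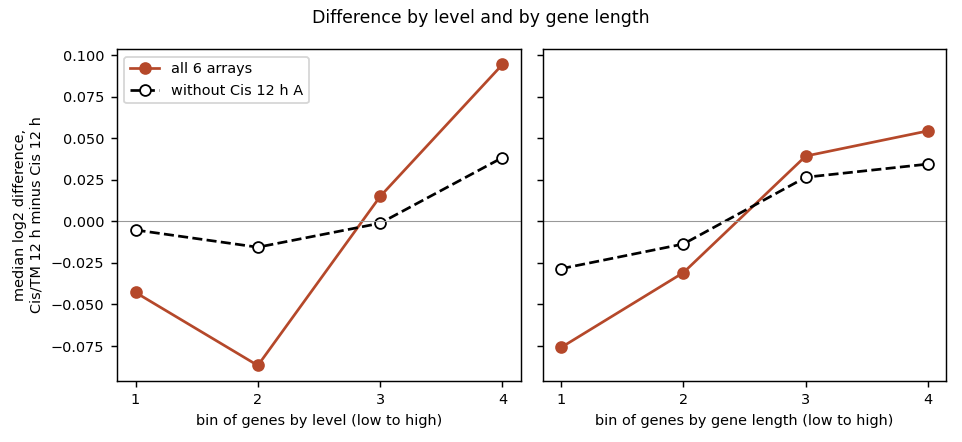
Median log2 difference of Cis/TM 12 h minus Cis 12 h in 4 equal bins of genes ordered by mean level (left) and by gene length (right), with all 6 arrays (filled circles) and without Cis 12 h A (open circles). With all 6 arrays the median is 0.09 in the most highly expressed bin and −0.08 in the bin of the shortest genes, and both are nearer to 0 without that array.

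The gene lists with the highest medians held genes of the DNA damage response and the cell cycle. The median log2 difference was 0.19 for homologous recombination and crosslink repair, 0.18 for the damage checkpoint, 0.18 for DNA replication, 0.16 for mitosis and kinetochore, 0.12 for excision and mismatch repair, 0.10 for G1/S cyclins and E2F regulators and 0.09 for ribosome biogenesis, against −0.01 for all genes. Without Cis 12 h A the same medians were 0.10, 0.07, 0.09, 0.08, 0.03, 0.05 and 0.03, against 0.00 for all genes. The lowest medians were −0.15 for metallothioneins and MTF1 targets, −0.10 for NF-kB targets, −0.10 for histone genes and −0.09 for integrins, laminins and collagens, and these were −0.10, −0.07, −0.05 and −0.01 without that array. Each of these 11 lists kept the sign of its median under every scaling tried, at a smaller size in most. With the trend with level removed the medians were 0.13 for recombination and crosslink repair, 0.11 for the checkpoint, 0.13 for replication, 0.08 for mitosis, 0.05 for excision and mismatch repair, 0.00 for G1/S and 0.01 for ribosome biogenesis. They were −0.13 for metallothioneins, −0.08 for NF-kB targets, −0.06 for histone genes and −0.03 for integrins, laminins and collagens. Under quantile normalization those of repair, checkpoint, replication and mitosis were 0.10, 0.10, 0.11 and 0.08. The lists overlap in some members and were chosen with earlier results of these data known.

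**Figure D2:**
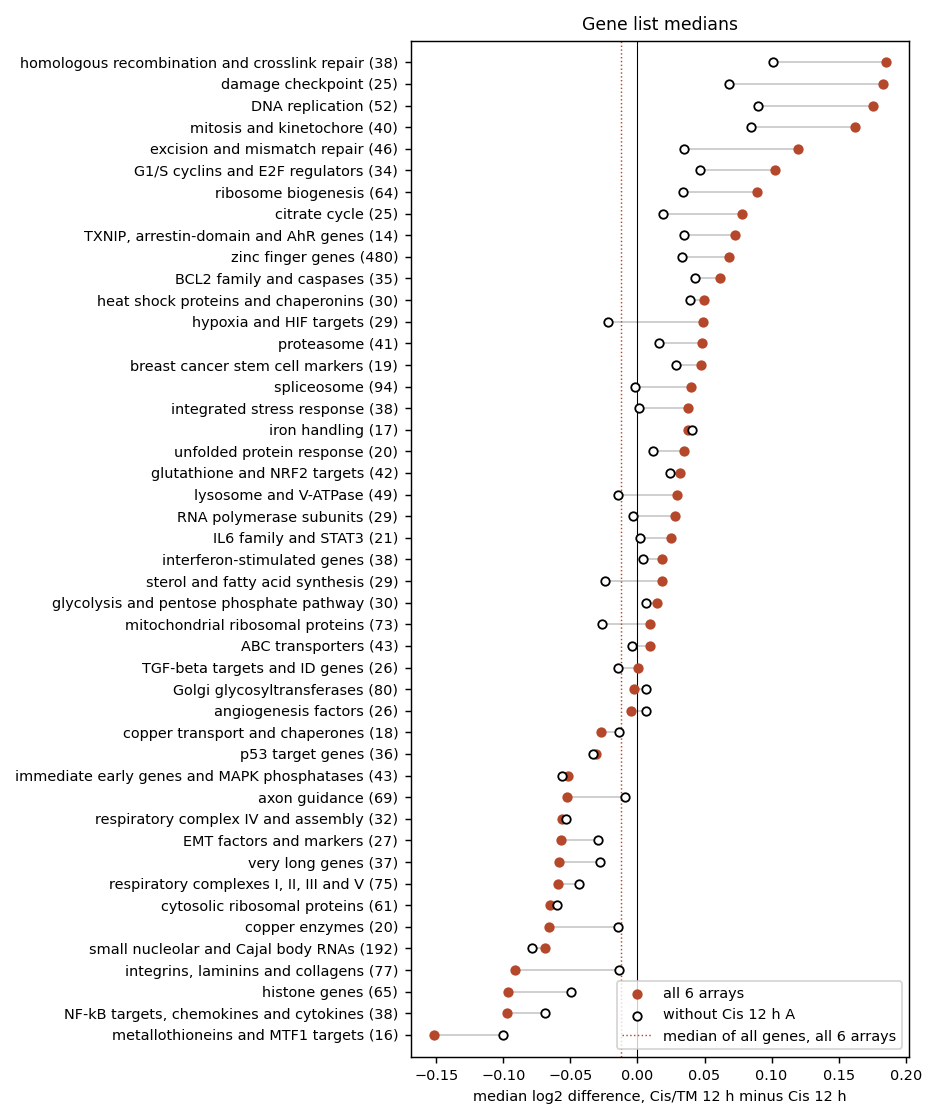
Median log2 difference of Cis/TM 12 h minus Cis 12 h in 46 gene lists, with the number of measured genes in parentheses, with all 6 arrays (filled circles) and without Cis 12 h A (open circles). Homologous recombination and crosslink repair is at the top with 0.19 and 0.10, and metallothioneins and MTF1 targets at the bottom with −0.15 and −0.10.

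Homologous recombination rebuilds a broken or collapsed fork from the sister chromatid, and the Fanconi anaemia proteins unhook the crosslinked bases. Of 38 measured genes of this list, 33 had a positive difference, 15 were higher at an unadjusted p under 0.05 and 0 were lower, where all genes gave 7.34% and 2.06%. Leaving out Cis 12 h A gave 29 positive, 7 higher (18.4%) and 0 lower, where all genes gave 2.14% and 0.988%. FANCI, a partner of FANCD2 at crosslinks, had 9.06, 9.04 and 9.05 in Cis/TM 12 h, against 8.29, 8.85 and 8.73 in Cis 12 h. Its difference was 0.43 (standard error 0.11, adjusted p = 0.286), and 0.26 without Cis 12 h A. The groups did not overlap, and array A was the lowest of the Cis 12 h arrays.

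BRCA1, which directs breaks to recombination, had 8.26, 8.05 and 8.18 in Cis/TM 12 h, against 7.23, 7.86 and 7.67 in Cis 12 h, a difference of 0.58 (standard error 0.15, adjusted p = 0.300). It was 0.40 when Cis 12 h A was left out. NBN, a subunit of the complex that senses breaks, had 9.25, 9.32 and 9.29 in Cis/TM 12 h, against 8.77, 9.08 and 9.03 in Cis 12 h, a difference of 0.33 (standard error 0.09), and its partner MRE11 had a difference of 0.43 (standard error 0.12) that was 0.25 without Cis 12 h A. RAD54B, a DNA translocase of recombination, had a difference of 0.48 (standard error 0.14). The nuclease FAN1, which acts on crosslinks, had 6.70, 6.62 and 6.50 in Cis/TM 12 h, against 5.88, 6.38 and 6.15 in Cis 12 h, a difference of 0.47 (standard error 0.17) and of 0.34 without Cis 12 h A. In these genes, most of them named for a low p, the Cis/TM 12 h arrays lay close together and above every Cis 12 h array. Of the 38 genes of the list 12 lay above and 0 below, where all genes gave 9.43% and 5.73%.

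The damage checkpoint carries the signal from stalled forks to the cell cycle. Of 25 measured genes, 20 had a positive difference. At an unadjusted p under 0.05, 6 were higher (24.0%) and 1 was lower (4.0%), against 7.34% and 2.06% of all genes. Without Cis 12 h A 3 were higher (12.0%) and 0 lower, against 2.14% and 0.988%. TOPBP1, an activator of the kinase ATR, had 9.57, 9.71 and 9.58 in Cis/TM 12 h, against 8.94, 9.38 and 9.34 in Cis 12 h, a difference of 0.40 (standard error 0.10, adjusted p = 0.286) that was 0.26 without Cis 12 h A. RAD18, a ubiquitin ligase that lets forks pass lesions, had a difference of 0.37 (standard error 0.11), and of 0.22 without that array. TIPIN and CLSPN, fork proteins that pass the signal to the kinase CHK1, had differences of 0.25 (standard error 0.09) and 0.24 (standard error 0.09). CLSPN had 10.25, 10.33 and 10.24 in Cis/TM 12 h, against 9.96, 10.03 and 10.08 in Cis 12 h, and its difference was 0.21 without Cis 12 h A. Here array A did not stand far from its group. H2AX, the histone gene of the γH2AX foci, ran the other way and was named after its values were seen. It had 8.29, 8.16 and 8.07 in Cis/TM 12 h, against 8.46, 8.32 and 8.35 in Cis 12 h. The difference was −0.20 (standard error 0.09), and −0.16 without Cis 12 h A. At 24 h it was −0.43 (limma, adjusted p = 0.0189).

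DNA replication genes encode origin recognition, the MCM helicase, polymerases and clamp loaders. Of 52 measured genes, 45 had a positive difference. Higher at an unadjusted p under 0.05 were 19 (36.5%) and lower 0, against 7.34% and 2.06% of all genes. Without Cis 12 h A 41 were positive and 7 were higher (13.5%), against 2.14% of all genes. DNA2, a nuclease and helicase that processes Okazaki fragments and stalled forks, had 8.31, 8.27 and 8.31 in Cis/TM 12 h, against 7.70, 7.99 and 7.85 in Cis 12 h, a difference of 0.46 (standard error 0.11, adjusted p = 0.286). ORC5, a subunit of the origin recognition complex, had 8.35, 8.27 and 8.46 in Cis/TM 12 h, against 7.73, 8.04 and 7.87 in Cis 12 h, a difference of 0.48 (standard error 0.12). The groups did not overlap in either gene.

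MCM3, a subunit of the replicative helicase, had 9.10, 9.05 and 9.03 in Cis/TM 12 h, against 8.53, 8.84 and 8.64 in Cis 12 h, a difference of 0.39 (standard error 0.10). PRIM1, the catalytic subunit of primase, had a difference of 0.40 (standard error 0.10) that was 0.26 without Cis 12 h A. The list was not uniform. MCM2, another helicase subunit, had 7.67, 7.26 and 7.43 in Cis/TM 12 h, against 7.26, 7.55 and 7.32 in Cis 12 h, a difference of 0.08 (standard error 0.15), and PCNA, the sliding clamp, had 0.09 (standard error 0.09). RPA2, a subunit of the single-strand binding protein, had a difference of 0.19 (standard error 0.12). The groups overlapped for these 3 genes.

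Many replication genes carry sites for E2F factors, so the promoter of MCM3 is shown as an example of a member with such letters. The letters searched were TTTCCCGC, TTTCGCGC, TTTGCCGC and TTTGGCGC on both strands in the 250 bases before the annotated start, and a match is in capitals. Of 45 replication genes with a RefSeq promoter, 14 held a match (31.1%), against 3.75% of all 14239 measured genes with a promoter and 5.60% of the 1161 higher genes with one. The promoters of PRIM1 and ORC5, and that of the repair gene BRCA1, held 0 matches. The MCM3 bases lie at chr6:52284743-52284992 on the minus strand of GRCh38.p14, and the match begins 174 bases before the start.
MCM3: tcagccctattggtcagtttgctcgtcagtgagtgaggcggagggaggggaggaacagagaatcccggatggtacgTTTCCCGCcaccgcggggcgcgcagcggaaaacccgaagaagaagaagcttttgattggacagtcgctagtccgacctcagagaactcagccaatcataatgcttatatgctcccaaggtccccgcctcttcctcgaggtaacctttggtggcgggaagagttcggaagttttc

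Genes of mitosis and the kinetochore are transcribed late in the cell cycle. Of 40 measured genes, 35 had a positive difference. At an unadjusted p under 0.05, 13 were higher (32.5%) and 0 lower, against 7.34% and 2.06% of all genes. Without Cis 12 h A 34 were positive and 4 of the 40 were higher, against 2.14% of all genes. BUB1B, a kinase-like protein of the spindle checkpoint, had 8.78, 8.85 and 8.72 in Cis/TM 12 h, against 8.09, 8.54 and 8.34 in Cis 12 h, a difference of 0.46 (standard error 0.11, adjusted p = 0.286), and of 0.34 without Cis 12 h A. TTK, the checkpoint kinase MPS1, had 8.32, 8.31 and 8.34 in Cis/TM 12 h, against 7.38, 7.98 and 8.07 in Cis 12 h, a difference of 0.51 (standard error 0.16), and of 0.30 without that array. The Cis/TM 12 h arrays of both genes were close together, and the Cis 12 h arrays were spread.

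BUB1, the kinase partner of BUB1B, had a difference of 0.41 (standard error 0.12), which was 0.20 without Cis 12 h A. ANLN, the anillin of the contractile ring, had 10.42, 10.53 and 10.52 in Cis/TM 12 h, against 10.04, 10.29 and 10.30 in Cis 12 h, a difference of 0.28 (standard error 0.09). KIF11, the spindle motor that separates centrosomes, had a difference of 0.40 (standard error 0.13) that was 0.26 without Cis 12 h A. CDCA5, which encodes the cohesion factor sororin, had 8.46, 8.10 and 8.20 in Cis/TM 12 h, against 7.91, 8.43 and 8.08 in Cis 12 h, a difference of 0.12 (standard error 0.22), and its groups overlapped.

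Promoters of mitotic genes often carry the cell cycle homology region just before the start, and those of BUB1B and ANLN are printed because both have it. The letters searched were TTTGAA on both strands, in capitals. Of 33 mitotic genes with a promoter 17 held a match (51.5%), against 10.6% of all measured genes and 12.1% of the higher genes. The promoter of BUB1 held 0 matches. BUB1B lies at chr15:40160819-40161068 on the plus strand, with the match ending 18 bases before the start. ANLN lies at chr7:36389612-36389861 on the plus strand, with a pair of adjoining matches of opposite strand.
BUB1B: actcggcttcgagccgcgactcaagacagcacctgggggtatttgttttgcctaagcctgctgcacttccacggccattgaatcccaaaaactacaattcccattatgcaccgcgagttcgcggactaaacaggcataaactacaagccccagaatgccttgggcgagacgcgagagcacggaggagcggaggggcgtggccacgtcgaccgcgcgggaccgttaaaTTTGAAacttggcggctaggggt
ANLN: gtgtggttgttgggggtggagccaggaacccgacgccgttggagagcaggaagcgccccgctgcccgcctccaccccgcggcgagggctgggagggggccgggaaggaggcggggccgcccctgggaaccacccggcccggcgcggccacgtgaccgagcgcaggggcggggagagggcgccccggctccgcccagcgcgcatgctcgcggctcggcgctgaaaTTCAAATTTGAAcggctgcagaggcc

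Excision and mismatch repair, which removes adducts within 1 strand and mispaired bases, had 32 of 46 measured genes with a positive difference. Of the 46 genes 7 were higher (15.2%) and 0 lower at an unadjusted p under 0.05, against 7.34% and 2.06% of all genes. Without Cis 12 h A 0 were higher, against 2.14% of all genes. CDK7 and MNAT1, subunits of the CDK-activating kinase within the repair factor TFIIH, had differences of 0.28 (standard error 0.10) and 0.41 (standard error 0.15), and of 0.21 and 0.18 without Cis 12 h A. PARP1, which marks strand breaks with poly(ADP-ribose), had 9.49, 9.39 and 9.49 in Cis/TM 12 h, against 9.02, 9.39 and 9.27 in Cis 12 h, a difference of 0.23 (standard error 0.10) that was 0.13 without Cis 12 h A. PARP2 and POLB, a relative of PARP1 and the gap-filling polymerase of base excision repair, had 0.17 (standard error 0.10) and 0.27 (standard error 0.17). PARG, the hydrolase that removes poly(ADP-ribose), was among the 10 largest positive differences of genes at or above the median level with an unadjusted p under 0.01 and no overlap, with 7.44, 7.53 and 7.49 in Cis/TM 12 h, against 6.20, 6.81 and 7.15 in Cis 12 h. Its difference was 0.77 (standard error 0.17, adjusted p = 0.263), and 0.51 without Cis 12 h A.

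**Figure D3:**
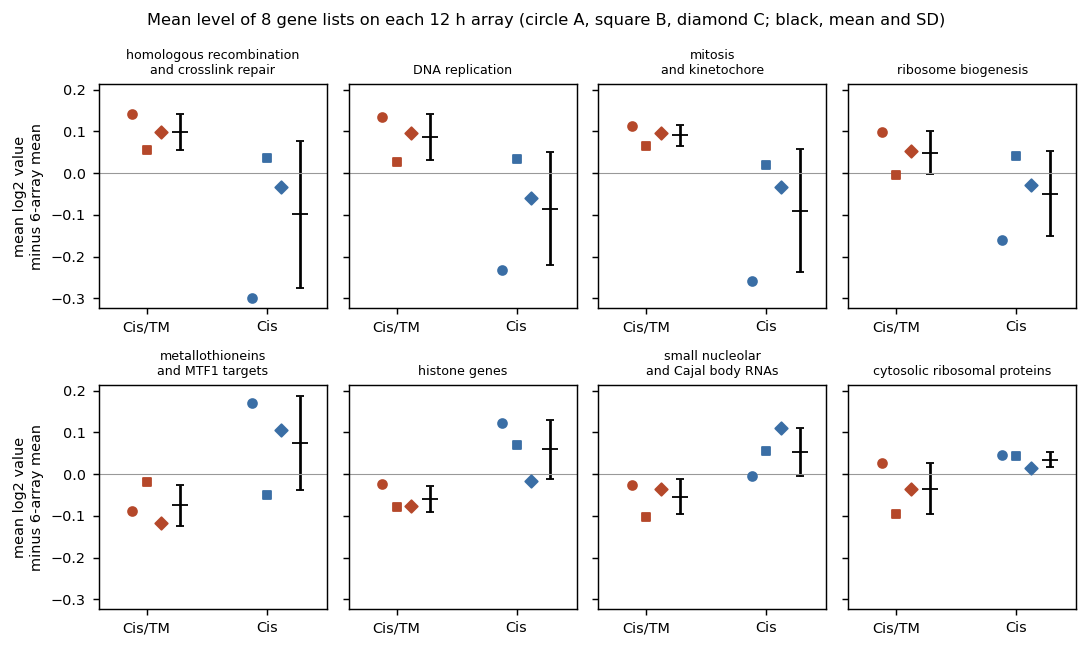
Mean log2 value of the genes of 8 lists on each array, as the deviation from the mean of the 6 arrays, for Cis/TM 12 h (left in each panel) and Cis 12 h (right), with replicate A as a circle, B as a square and C as a diamond, and group mean and SD in black. In the repair, replication and mitosis lists Cis 12 h A lies lowest, at −0.30, −0.23 and −0.26, and the groups overlap for DNA replication, where Cis 12 h B (0.0349) is above Cis/TM 12 h B (0.0259).

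Per array, the mean of the repair list relative to the 6-array mean was 0.14, 0.06 and 0.10 in Cis/TM 12 h, against −0.30, 0.04 and −0.03 in Cis 12 h. The mitosis list had 0.11, 0.06 and 0.10 in Cis/TM 12 h, against −0.26, 0.02 and −0.03 in Cis 12 h. Cis 12 h A lay far below the other 5 arrays in both lists, and the remaining Cis 12 h arrays were still below all Cis/TM 12 h arrays. The checkpoint and histone lists did not overlap either. By contrast the groups overlapped for excision and mismatch repair, G1/S, ribosome biogenesis, metallothioneins, NF-kB targets, cytosolic ribosomal proteins, and integrins, laminins and collagens. For metallothioneins Cis 12 h B (−0.0502) lay below Cis/TM 12 h B (−0.0197).

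Glutathione is made from cysteine, which enters through the cystine transporter SLC7A11, by the glutamate-cysteine ligase of the subunits GCLC and GCLM, and GSR returns its oxidized form to the thiol. NRF2 drives these genes. Of 42 measured genes of glutathione and NRF2 targets, 6 were higher (14.3%) and 3 lower (7.14%) at an unadjusted p under 0.05. All genes gave 7.34% and 2.06%, and the list median was 0.03. Without Cis 12 h A 5 were higher (11.9%) and 2 lower (4.76%), against 2.14% and 0.988% of all genes. GCLM had 9.43, 9.61 and 9.54 in Cis/TM 12 h, against 9.10, 9.01 and 9.21 in Cis 12 h, a difference of 0.42 (standard error 0.10, adjusted p = 0.281) that was also 0.42 without Cis 12 h A. The groups did not overlap, and array A was not the lowest of its group.

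SLC7A11 had 9.90, 10.03 and 9.98 in Cis/TM 12 h, against 9.35, 9.69 and 9.70 in Cis 12 h, a difference of 0.39 (standard error 0.10) and of 0.27 without Cis 12 h A. GSR had 10.26, 10.20 and 10.20 in Cis/TM 12 h, against 9.53, 10.04 and 9.79 in Cis 12 h, a difference of 0.43 (standard error 0.11). The other 3 higher members, named after their values were seen, were GCLC with 0.32 (standard error 0.10), the thioredoxin reductase TXNRD1 with 0.24 (standard error 0.08) and the sulfiredoxin SRXN1 with 0.20 (standard error 0.08). All 6 had every Cis/TM 12 h array above every Cis 12 h array. They were picked by p and direction, which favours such a separation. Of the 42 genes of the list 7 lay above and 4 below, where all genes gave 9.43% and 5.73%. At 24 h SLC7A11 was higher in Cis/TM 24 h than in Cis 24 h by 0.56 (standard error 0.10, adjusted p = 0.00912), and GCLM had 0.22 (adjusted p = 0.234).

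The promoter of GCLM is printed because it holds the core of an antioxidant response element, the letters bound by NRF2. TGACNNNGC was searched on both strands, and the match, in capitals, is on the opposite strand from 34 to 26 bases before the start. Of 34 genes of the list with a promoter 10 held a match (29.4%), against 11.8% of all measured genes. It was held by 36.4% of the metallothionein list, 12.1% of mitosis, 8.89% of replication and 3.12% of recombination genes. The bases lie at chr1:93909431-93909680 on the minus strand.
GCLM: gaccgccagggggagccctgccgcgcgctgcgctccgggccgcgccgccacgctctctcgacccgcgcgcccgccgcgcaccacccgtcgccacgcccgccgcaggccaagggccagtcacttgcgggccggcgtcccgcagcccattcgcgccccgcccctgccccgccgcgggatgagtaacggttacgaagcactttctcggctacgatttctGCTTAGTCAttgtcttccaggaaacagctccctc

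The 3 lower members of that list were glutathione enzymes. GPX1, the selenium-dependent glutathione peroxidase, had 8.57, 8.17 and 8.39 in Cis/TM 12 h, against 8.93, 9.14 and 8.97 in Cis 12 h, a difference of −0.64 (standard error 0.14, adjusted p = 0.234). Leaving out Cis 12 h A gave −0.68. It averaged 8.38 under both drugs and 9.01 under cisplatin, with 6.17 in Control, so both treated groups were far above Control. GPX4, the peroxidase of membrane lipids, had −0.31 (standard error 0.13), and MGST3, a microsomal glutathione transferase, had −0.19 (standard error 0.09). At 24 h GPX1 was also lower with TM, with a difference of −0.87 between Cis/TM 24 h and Cis 24 h (adjusted p = 0.00549, standard error 0.14).

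No common shift was seen among copper transport genes. Of 18 measured transporters and chaperones 2 were higher (11.1%) and 0 lower at an unadjusted p under 0.05, against 7.34% and 2.06% of all genes. The median was −0.03. The differences ran from −0.21 for CCS, the copper chaperone of superoxide dismutase, to 0.28 for SP1, a transcription factor of SLC31A1. ATP7A, the copper-exporting ATPase, had 6.32, 6.41 and 6.44 in Cis/TM 12 h, against 5.68, 6.51 and 6.29 in Cis 12 h. The difference was 0.23 (standard error 0.16, adjusted p = 0.689), and −0.01 without Cis 12 h A, and the groups overlapped. At 24 h ATP7A was higher in Cis/TM 24 h than in Cis 24 h by 0.60 (standard error 0.16, adjusted p = 0.0397).

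SLC31A1 had 11.11, 11.13 and 11.05 in Cis/TM 12 h, against 11.02, 11.07 and 11.01 in Cis 12 h, a difference of 0.07 (standard error 0.08). Its relative SLC31A2 had −0.05 (standard error 0.16), the second copper ATPase ATP7B −0.12 (standard error 0.17), and ATOX1, the chaperone that serves both ATPases, −0.08 (standard error 0.13). SP1 had 7.83, 7.89 and 7.95 in Cis/TM 12 h, against 7.46, 7.63 and 7.75 in Cis 12 h (standard error 0.09), and CUTC, a copper homeostasis protein, had 0.23 (standard error 0.10). In the other 16 transport genes the groups overlapped.

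Among 20 measured copper enzymes and related proteins, 1 was higher and 1 lower (5.0% each), against 7.34% and 2.06% of all genes. The median was −0.07. MEMO1, a copper-binding protein, had 8.72, 8.75 and 8.75 in Cis/TM 12 h, against 8.22, 8.64 and 8.55 in Cis 12 h, a difference of 0.27 (standard error 0.10) that was 0.15 without Cis 12 h A. AOC3, a copper amine oxidase, had 6.66, 6.73 and 6.55 in Cis/TM 12 h, against 7.70, 6.99 and 6.74 in Cis 12 h, a difference of −0.50 (standard error 0.21) that was −0.22 without Cis 12 h A. SOD1, the cytosolic copper-zinc superoxide dismutase, had −0.07 (standard error 0.08), and the lysyl oxidase LOX, which crosslinks collagen, had 0.08 (standard error 0.21) with overlapping groups and −0.22 without Cis 12 h A.

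Metallothioneins, small cysteine-rich proteins that bind zinc, copper and platinum, gave the lowest list median. Of 16 measured genes of the list, 2 had a positive difference. At an unadjusted p under 0.05, 1 was higher (6.25%) and 2 were lower (12.5%), against 7.34% and 2.06% of all genes. Without Cis 12 h A 0 were higher and 1 was lower (6.25%), against 2.14% and 0.988%. MT1X had 8.99, 9.17 and 8.99 in Cis/TM 12 h, against 9.58, 9.42 and 9.45 in Cis 12 h, a difference of −0.43 (standard error 0.10, adjusted p = 0.281). Leaving out Cis 12 h A gave −0.38. The groups did not overlap, and the averages were 9.05 under both drugs and 9.48 under cisplatin, with 7.87 in Control.

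MT1G had 9.47, 9.48 and 9.43 in Cis/TM 12 h, against 9.90, 9.61 and 9.64 in Cis 12 h, a difference of −0.26 (standard error 0.11) that was −0.17 without Cis 12 h A. MT2A, another member, had 12.35, 12.41 and 12.34 in Cis/TM 12 h, against 12.60, 12.39 and 12.35 in Cis 12 h, a difference of −0.08 (standard error 0.09), and its groups overlapped. MT1F, MT4, MT3, MT1H, MT1B, MT1E and MT1M had differences from −0.35 to −0.14, and from −0.21 to 0.01 without Cis 12 h A, and the groups overlapped in all 7. Metallothionein genes are near-identical copies, and probes may share signal between them. The zinc importer SLC39A10 was the member that was higher, with 0.29 (standard error 0.11, and 0.15 without Cis 12 h A), and MTF1, the metal-sensing factor that drives the family, had 0.15 (standard error 0.13).

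The promoters of MT1X and MT2A are shown as those of metal-responsive genes, MT1X with no overlap between the groups and MT2A with overlapping groups. The difference between the 2 genes was not tested. The core of the metal response element was searched as TGCACNC and TGCGCNC on both strands, and matches are in capitals. MT1X held 4 matches at chr16:56682220-56682469 and MT2A held 7 at chr16:56608334-56608583, both on the plus strand. Of 11 genes of the list with a promoter 7 held a match (63.6%), against 29.7% of all measured genes. No count of matches was tested against the differences.
MT1X: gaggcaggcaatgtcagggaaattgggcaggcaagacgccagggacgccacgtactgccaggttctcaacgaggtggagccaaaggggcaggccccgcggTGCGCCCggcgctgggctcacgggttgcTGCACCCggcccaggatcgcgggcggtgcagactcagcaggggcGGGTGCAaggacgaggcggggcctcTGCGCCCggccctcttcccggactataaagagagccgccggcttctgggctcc
MT2A: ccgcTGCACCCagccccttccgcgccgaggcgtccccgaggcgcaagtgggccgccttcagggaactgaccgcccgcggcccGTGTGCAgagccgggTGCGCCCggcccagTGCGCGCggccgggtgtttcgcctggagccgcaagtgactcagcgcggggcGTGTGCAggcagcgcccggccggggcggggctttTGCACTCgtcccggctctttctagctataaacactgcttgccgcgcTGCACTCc

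**Figure D4:**
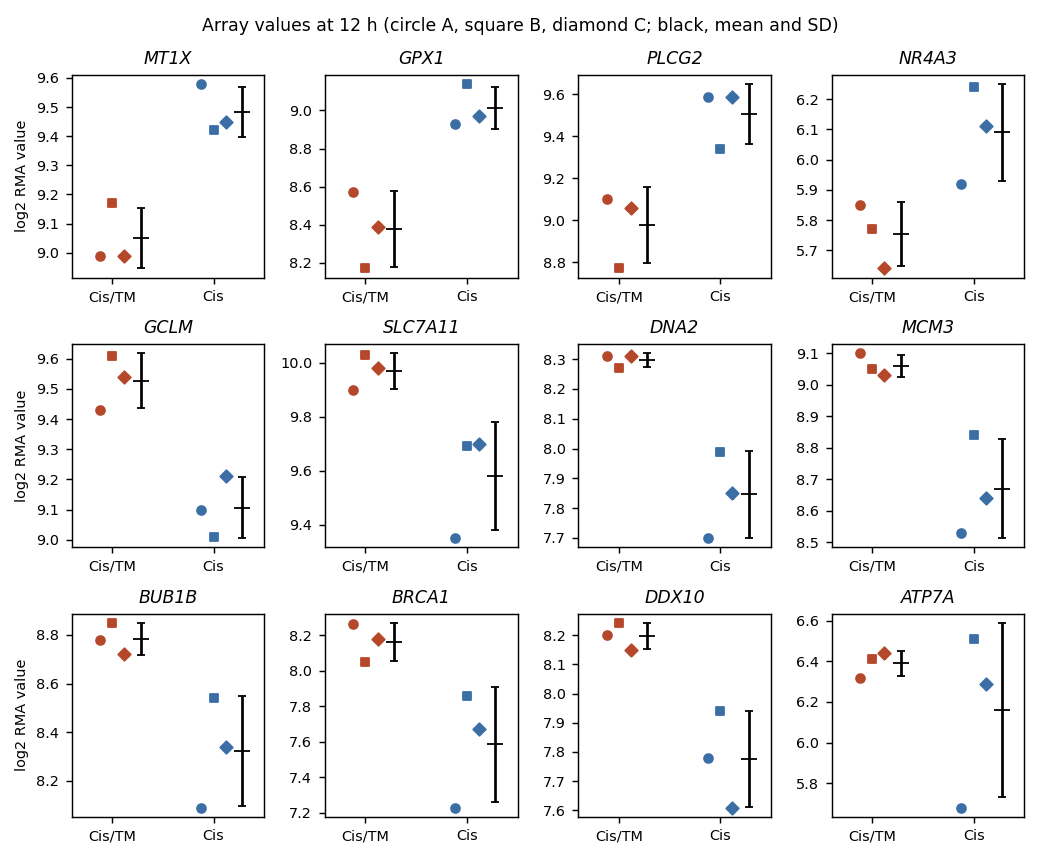
Log2 RMA values of 12 genes on each array at 12 h, Cis/TM left and Cis right, with replicate A as a circle, B as a square and C as a diamond, and group mean and SD in black; vertical axes differ and do not start at 0. MT1X, GPX1, PLCG2 and NR4A3 are lower and GCLM, SLC7A11, DNA2, MCM3, BUB1B, BRCA1 and DDX10 higher in all 3 Cis/TM arrays, whereas the ATP7A groups overlap and its Cis 12 h A value is 5.68.

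Ribosome biogenesis genes, which make and fold ribosomal RNA, had 46 of 64 measured members with a positive difference. At an unadjusted p under 0.05, 11 were higher (17.2%) and 0 lower, against 7.34% and 2.06% of all genes. Without Cis 12 h A 1 was higher (1.56%), against 2.14% of all genes. DDX10, an RNA helicase of the small subunit, had 8.20, 8.24 and 8.15 in Cis/TM 12 h, against 7.78, 7.94 and 7.61 in Cis 12 h, a difference of 0.42 (standard error 0.10, adjusted p = 0.286), and the same 0.42 without Cis 12 h A. At 24 h it was 0.42 as well (standard error 0.10, adjusted p = 0.0293). POLR1B and POLR1A, the large subunits of RNA polymerase I, had 0.40 (standard error 0.13) and 0.31 (standard error 0.10), and 0.21 and 0.26 without Cis 12 h A. With the trend with level removed, 5 of the 64 genes of the list were higher and 0 lower, against 1019 and 392 of all 18417 genes.

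The genes of the ribosome itself ran the other way. Of 61 measured cytosolic ribosomal protein genes 15 had a positive difference, with a median of −0.07. At an unadjusted p under 0.05, 1 was higher (1.64%) and 5 were lower (8.2%), against 7.34% and 2.06% of all genes. Without Cis 12 h A the median was −0.06, with 0 higher and 0 lower, where all genes gave 2.14% and 0.988%. RPL32 had 7.93, 8.61 and 8.46 in Cis/TM 12 h, against 8.84, 8.78 and 8.85 in Cis 12 h, a difference of −0.49 (standard error 0.20). The member that was higher was RPL22, with 8.21, 8.16 and 8.45 in Cis/TM 12 h, against 6.81, 7.88 and 7.97 in Cis 12 h, a difference of 0.72 (standard error 0.23) that was 0.35 without Cis 12 h A. With the trend with level removed, 1 of the 61 was higher and 20 were lower, against 1019 and 392 of all 18417 genes. Under quantile normalization 1 was higher and 11 were lower, against 976 and 495 of all genes. The count of lower genes thus depends on the scaling.

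Small nucleolar and Cajal body RNAs guide the modification of ribosomal and spliceosomal RNA, and most are cut from introns of other genes. Of 192 measured, 62 had a positive difference, with a median of −0.07. At an unadjusted p under 0.05, 1 was higher (0.521%) and 18 were lower (9.38%), against 7.34% and 2.06% of all genes. Without Cis 12 h A the median was −0.08, and 0 were higher and 18 lower (9.38%), against 2.14% and 0.988%. SNORD74 had 9.03, 8.48 and 8.72 in Cis/TM 12 h, against 9.65, 9.29 and 9.38 in Cis 12 h, a difference of −0.69 (standard error 0.20, adjusted p = 0.300), and −0.59 without Cis 12 h A. SNORD33, SNORA71A, SNORA80E, SNORD95 and SNORD43 had differences of −0.57, −0.54, −0.54, −0.52 and −0.50, and were named by a rule that required no overlap. They were −0.34, −0.48, −0.37, −0.37 and −0.38 without Cis 12 h A. SNORD13 and SNORD46, named after their values were seen, had larger differences of −0.79 and −0.77, which were −0.41 and −0.42 without that array. Probes within a host gene cannot tell the small RNA from its host transcript.

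Histone genes had 12 of 65 measured members with a positive difference, and a median of −0.10. At an unadjusted p under 0.05, 1 was higher (1.54%) and 7 were lower (10.8%), against 7.34% and 2.06% of all genes. Without Cis 12 h A the median was −0.05. In that case 1 was higher (1.54%) and 5 were lower (7.69%), against 2.14% and 0.988%. H4C8 was the member that was higher, with 8.13, 8.05 and 7.75 in Cis/TM 12 h, against 7.26, 7.44 and 7.59 in Cis 12 h, a difference of 0.55 (standard error 0.16). H2AC15 had 6.16, 6.10 and 6.20 in Cis/TM 12 h, against 6.79, 6.40 and 6.59 in Cis 12 h, a difference of −0.43 (standard error 0.15). Histone genes are near-identical copies, so the assignment to 1 copy is uncertain.

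The largest positive differences, among genes at or above the median level with an unadjusted p under 0.01 and no overlap, were those of ABCA11P, WNK3, PARG, IPP, EXOC6, RPL22, OR51B4, DGKH, HAUS6 and ARAP2, from 0.81 to 0.69. Without Cis 12 h A these 10 differences ran from 0.35 (RPL22) to 0.62 (IPP). Larger differences outside that rule reached 1.18. EXOC6, a subunit of the exocyst that tethers secretory vesicles, had 6.77, 6.88 and 6.91 in Cis/TM 12 h, against 5.76, 6.43 and 6.05 in Cis 12 h, a difference of 0.77 (standard error 0.16, adjusted p = 0.234) that was 0.61 without Cis 12 h A. DGKH, a diacylglycerol kinase, had 6.88, 6.64 and 6.77 in Cis/TM 12 h, against 5.70, 6.39 and 6.11 in Cis 12 h, a difference of 0.70 (standard error 0.14). HAUS6, a subunit of the augmin complex of the spindle, had 9.02, 8.96 and 9.07 in Cis/TM 12 h, against 7.77, 8.73 and 8.48 in Cis 12 h, a difference of 0.69 (standard error 0.18), and of 0.41 without Cis 12 h A. In each of these 3 genes Cis 12 h A was the lowest array.

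The largest negative differences by the same rule were those of 6 small nucleolar RNAs and of GPX1, PLCG2, TFF1 and CDK2AP2. PLCG2, a phospholipase C that makes diacylglycerol and inositol trisphosphate, had 9.10, 8.77 and 9.06 in Cis/TM 12 h, against 9.59, 9.34 and 9.59 in Cis 12 h, a difference of −0.53 (standard error 0.11, adjusted p = 0.234), and −0.49 without Cis 12 h A. TFF1, a secreted trefoil peptide, had a difference of −0.48 (standard error 0.16), and CDK2AP2 had −0.46 (standard error 0.12). Without Cis 12 h B, limma called 5 genes, all higher, namely FAM169A, FAXC, DGKH, CNOT6L and EXOC6, with adjusted p from 0.0401 to 0.0459, and under quantile normalization it called GPX1 alone (−0.76, adjusted p = 0.0425).

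The comparison of Cis/TM 24 h with Cis 24 h shares no array with that at 12 h. Over all genes it called 84 higher (0.456%) and 193 lower (1.05%). Of the 1352 genes higher at 12 h, 963 (71.2%) had a positive difference at 24 h, against 47.9% of all genes, 12 were called higher and 0 lower, which is 0.888% and 0% of them. Of the 380 lower genes, 124 (32.6%) were positive at 24 h, and 4 were called higher and 15 lower (3.95%). Of the 10 largest positive differences 9 were positive and 0 called at 24 h, and of the 10 largest negative ones 0 were positive and 4 were called lower, namely GPX1, PLCG2 (−0.70, adjusted p = 0.00549), SNORA80E (−0.75, adjusted p = 0.017) and SNORD95 (−0.64, adjusted p = 0.038).

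The lists did not all keep their place at 24 h. The median of DNA replication was −0.14 in Cis/TM 24 h against Cis 24 h, that of ribosome biogenesis −0.14, of excision and mismatch repair −0.13, of mitosis −0.08 and of homologous recombination −0.00, while that of metallothioneins was −0.15 and of histone genes −0.08. The test of the difference between 12 h and 24 h called 0 genes with a more positive difference at 12 h (0%) and 8 with a more negative one (0.0434%). With array weights, added after the data were seen, these counts were 376 and 156. PDGFD, a platelet-derived growth factor, was among the 8. It had 4.86, 4.81 and 4.80 in Cis/TM 12 h, against 5.09, 5.27 and 5.17 in Cis 12 h, a difference of −0.35 (standard error 0.11), and a difference of 0.66 at 24 h (adjusted p = 0.00747).

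The difference between TM 12 h and Control was unlike that of TM on cisplatin in many genes. It rests on 2 TM 12 h arrays, and the Control labels give no time. An effect of TM alone therefore cannot be told apart from other differences between these arrays and Control, such as time. TM 12 h against Control called 1656 genes higher (8.99%) and 573 lower (3.11%). Of the 1352 genes higher with TM on cisplatin, 59.9% had a positive difference under TM alone, against 45.7% of all genes, and of the 380 lower genes 44.5%. The test of the difference between TM added to cisplatin and TM alone called 631 genes as more positive on cisplatin (3.43%) and 1266 as more negative (6.87%). The split depends on the scaling, with 965 and 876 under median centring, 795 and 924 under quantile normalization and 762 and 900 with the trend with level removed.

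GPX1 was higher by 1.65 in TM 12 h than in Control (standard error 0.15, adjusted p = 9.0e-07), and the difference of the effects was −2.29 (standard error 0.20, adjusted p = 4.2e-06). MT1X was higher by 0.40 under TM alone (adjusted p = 0.0128), with a difference of the effects of −0.83 (adjusted p = 0.00137). SLC7A11 was lower under TM alone (−0.43, adjusted p = 0.00984), with a difference of the effects of 0.82 (adjusted p = 0.00197). By contrast DNA2 and ORC5 had 0.43 (adjusted p = 0.0135) and 0.46 (adjusted p = 0.013) under TM alone, close to 0.46 and 0.48 on cisplatin, and their effects differed by 0.02 and 0.02 (standard errors 0.16 and 0.17).

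**Figure D5:**
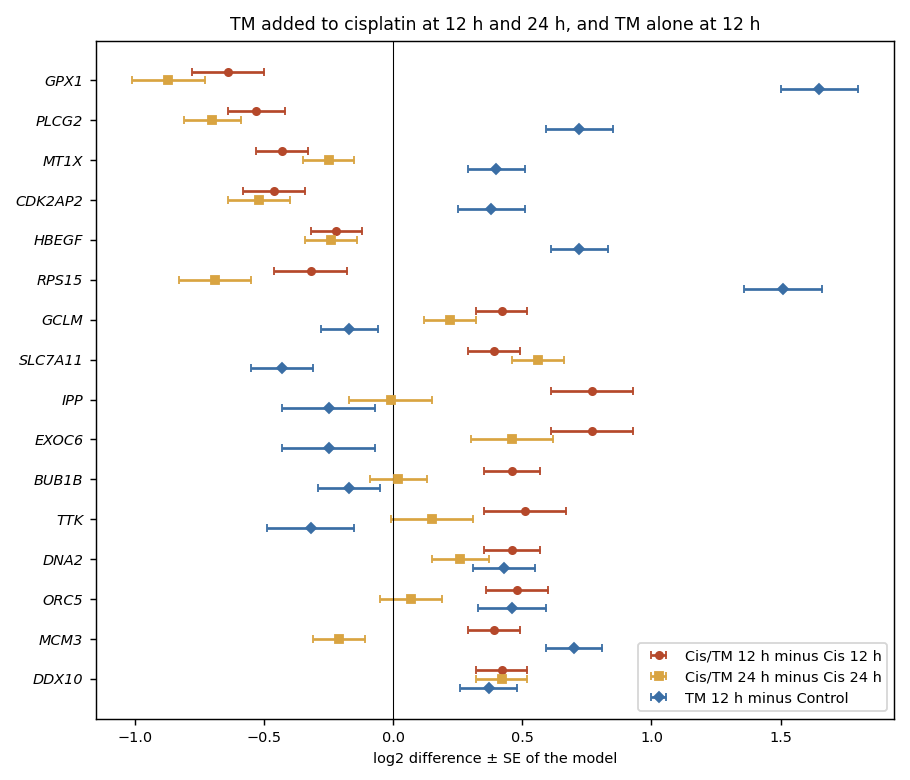
Log2 differences (points) with the standard error of the model (bars) of 16 genes for Cis/TM 12 h minus Cis 12 h (circles), Cis/TM 24 h minus Cis 24 h (squares) and TM 12 h minus Control (diamonds). GPX1 lies at −0.64, −0.87 and 1.65, and DDX10 at 0.42, 0.42 and 0.37, in that order.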

How the data were processed

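MDA-MB-231 cells were profiled on 20 Affymetrix Human Gene 1.0 ST arrays in 7 groups. The authors background-corrected, normalized and summarized probe intensities with RMA, and the deposited log2 values were used unchanged. RMA shrinks differences of dim probes, and a background level per gene was not used. The sample labels name Trizol and the methods an RNeasy kit for RNA isolation. Of 33297 transcript clusters, 19460 carried 1 symbol in the platform annotation, 1754 several and 12083 none, and each of 18417 genes was taken as the cluster with 1 symbol and the highest mean over all arrays. The position of a cluster was not checked against that of its gene. The cluster numbers of HAUS6 and MEMO1 fall among those of genes on other chromosomes, so the assignment of their values is uncertain.

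One linear model with 7 groups (13 residual degrees of freedom) was fitted with limma 3.58.1 in R 4.3.3, moderated by eBayes, and p-values were adjusted by Benjamini-Hochberg over all genes. Calls needed a fold change above 1.5 with an adjusted p below 0.05. The difference between effects was tested as a contrast of the same model. With 3 arrays against 3, an exact permutation test of 1 value cannot go below p = 0.1 and was not used. The procedure was tested on simulated data.

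Alternatives were the 6 arrays alone, median centring, quantile normalization, removal of the trend with level (loess, span 0.4), leaving out the lowest 25% of genes, a replicate block, each array left out, a variance trend with robust moderation, the ordinary linear model (analysis of variance, which the study names), array weights, every transcript cluster, and other thresholds. The named genes were the 10 largest differences in each direction with an unadjusted p under 0.01, no overlap and a level at or above the median, up to 4 members per list by p among those under 0.05, all copper and metallothionein genes, and genes the study names. The comparison, the 46 lists and these rules were chosen with earlier results of these data known. Lists are described by counts and medians without a test. Promoter bases and gene lengths are from RefSeq GRCh38.p14, which is not the source of the array annotation, and 14239 of the genes matched a promoter by symbol.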

Additional observations from a re-analysis of the deposited data

Results flagged for a closer look

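Of the 142 named genes with an unadjusted p under 0.05, 35 had an effect of TM on cisplatin at 12 h that differed from the effect of TM alone at 12 h, by the contrast of the 2 effects in limma at an adjusted p under 0.05 and over 1.5-fold (adjusted p from 4.2e-06 to 0.0472). TM 12 h has 2 arrays, and the Control labels give no time. What is called the effect of TM alone therefore cannot be told apart from other differences between these arrays and Control. Over all genes the same contrast called 3.43% more positive and 6.87% more negative. The 142 genes were picked by the difference on cisplatin, which is part of this contrast. Their larger share of calls, and the direction of each, therefore follow in part from how they were picked. Of these 35, 16 were more positive on cisplatin and 19 more negative, and the values below are the log2 effect on cisplatin minus the log2 effect alone.

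Among genes of glutathione and metal handling the difference was −2.29 for GPX1, −0.83 for MT1X, 0.59 for GCLM and 0.82 for SLC7A11. Among mitotic and cell cycle genes it was 0.61 for BUB1, 0.63 for BUB1B, 0.83 for TTK, −0.83 for CDK2AP2 and −1.02 for GADD45B. For genes of the ribosome and small nucleolar RNAs it was −1.45 for RPL32, −0.64 for RPL35, −1.83 for RPS15, −0.63 for MRPL41, −1.30 for SNORA71A, −1.37 for SNORD43, −1.81 for SNORD74 and −0.82 for SNORD95, all more negative on cisplatin. For subunits of the respiratory chain it was −1.10 for COX8A, −0.62 for NDUFA3, −0.97 for NDUFB11 and −0.82 for NDUFB7. For growth factors, receptors, adhesion and signalling genes it was −0.93 for HBEGF, 0.85 for PDGFC, 1.60 for VLDLR, 0.76 for ITGAV and −1.25 for PLCG2. For vesicle, endoplasmic reticulum and Golgi genes it was 1.02 for EXOC6, 1.09 for SEL1L and 0.64 for GALNT1. For chromatin, transcription factor and remaining genes it was 0.90 for H4C8, 0.63 for ZEB1, −0.73 for ZNF385C, 2.18 for ZNF404, 0.62 for PARP14 and 1.02 for IPP.

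PDGFD had a TM effect on cisplatin at 12 h that differed from that at 24 h by −1.02 (adjusted p = 0.0221), with −0.35 at 12 h and 0.66 at 24 h. Groups of 3 arrays were not examined for outlying arrays gene by gene.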

How the results depend on the processing

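In Cis/TM 12 h against Cis 12 h, the count of 0 called genes became 27 higher and 14 lower with array weights, and 1 lower under quantile normalization, and at an unadjusted p under 0.05 with a fold over 1.5 it was 42 higher and 10 lower. With 1 array left out it ran from 0 to 5 higher and was 0 lower throughout, and the 5 appeared without Cis 12 h B. Under every other alternative it was 0. The counts at an unadjusted p under 0.05, 1352 higher and 380 lower, were 2187 and 1385 with array weights and 1568 and 215 under median centring. With 1 array left out they ran from 394 to 2027 higher and from 182 to 669 lower. They were 394 and 182 without Cis 12 h A, 842 and 197 without Cis/TM 12 h C, 2027 and 669 without Cis 12 h B, and 1621 and 591 without Cis 12 h C.

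The 631 and 1266 genes called for the difference from TM alone were 965 and 876 under median centring and 730 and 1544 with array weights, and ran from 438 to 683 and from 954 to 1323 with 1 array left out. The 0 more positive and 8 more negative genes for the difference from 24 h were 5 and 11 with a variance trend and robust moderation, 2 and 28 under quantile normalization, 1 and 29 with the trend with level removed, 0 and 3 under median centring, 0 and 2 with the ordinary linear model, and 376 and 156 with array weights. With 1 array left out they ran from 0 to 1 and from 2 to 24, with 24 more negative genes without Cis 12 h A, 3 without Cis/TM 12 h C and 2 without Cis 12 h B, Cis 12 h C or Cis/TM 12 h B. Array weights for these differences, the lists and the named genes were chosen after seeing the data. The causes were not tested.

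With a replicate block the counts were 0 and 0 called, 1365 and 373 at an unadjusted p under 0.05, 544 and 1149 against TM alone, and 0 and 2 against 24 h. The letters do not pair the arrays, since deviations of same-lettered arrays from their group means correlated across genes by −0.27 (A), −0.42 (B) and 0.21 (C). Of 46 list medians 25 kept their sign under every alternative, and 27 never moved by more than the SD of the list mean between arrays. None of the 142 named genes with an unadjusted p under 0.05 changed sign under any alternative. They were picked by that p in the main fit, so a change of sign was unlikely from the start. With array weights 55 of them passed an adjusted p of 0.05 (smallest 0.00113), and under the other alternatives 3 of 1985 values did, those of DGKH and EXOC6 without Cis 12 h B and of GPX1 under quantile normalization.

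With 3 arrays in each group and a median standard error of 0.135, small differences of single genes were not detectable after adjustment. Values near the lower end of the RMA scale have no known background.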

Other observations

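Zinc finger genes, most of which encode repressors of transcription, made the largest list. Of 480 measured genes 313 had a positive difference in Cis/TM 12 h against Cis 12 h, 42 were higher (8.75%) and 6 lower (1.25%) at an unadjusted p under 0.05, near the 7.34% and 2.06% of all genes, and the median was 0.07. Without Cis 12 h A the median was 0.03, with 12 higher (2.50%) and 6 lower (1.25%), where all genes gave 2.14% and 0.988%. ZNF420 had 6.64, 6.69 and 6.49 in Cis/TM 12 h, against 5.57, 6.14 and 6.15 in Cis 12 h, a difference of 0.65 (standard error 0.18). Many zinc finger genes are near-identical copies, so the assignment of their signal is uncertain.

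Respiratory chain subunits of complexes I, II, III and V had a positive difference in 27 of 75 measured genes, with a median of −0.06. Higher were 1 (1.33%) and lower 6 (8.0%), against 7.34% and 2.06% of all genes. Without Cis 12 h A 0 were higher and 1 lower (1.33%), against 2.14% and 0.988%. NDUFB11, a subunit of complex I, had 8.77, 8.70 and 8.84 in Cis/TM 12 h, against 9.06, 9.23 and 9.09 in Cis 12 h, a difference of −0.36 (standard error 0.14) that was −0.39 without Cis 12 h A. Of 38 NF-kB targets, chemokines and cytokines 10 were positive, 2 were higher and 2 lower (5.26% each), and 0 were either without Cis 12 h A. Of 43 immediate early genes 1 was higher (2.33%) and 4 were lower (9.3%). Without that array 1 was higher and 1 lower (2.33% each). All genes gave 7.34% and 2.06%, and 2.14% and 0.988% without that array. NR4A3, an orphan nuclear receptor, had 5.85, 5.77 and 5.64 in Cis/TM 12 h, against 5.92, 6.24 and 6.11 in Cis 12 h, a difference of −0.34 (standard error 0.12) that was −0.42 without Cis 12 h A. STAT3 had a difference of 0.16 (standard error 0.14), CASP9 of 0.20 (standard error 0.15) and ABCB1, the multidrug transporter, of −0.13 (standard error 0.13).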
